A study of Mus musculus with 25 samples.

Results

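Lung mesenchymal cells taken 6 weeks after a single bleomycin instillation, when fibrosis has been resolving, were compared here with the same kind of cells from uninstilled lungs. The comparison used 8 of the 20 bulk RNA-seq libraries of the series, which holds 25 libraries with its single-cell ones. They were chosen by their labels alone: 4 libraries of the group Fas+/+ at week 6 and 4 naive libraries. Both groups carried the Col1a1-CreERT2 transgene and floxed Fas alleles (Col1a1-CreERT2;Fas fl/fl). Naive mice received no instillation. Fas+/+ mice received intratracheal bleomycin and then corn oil, the vehicle of tamoxifen, so that the Cre recombinase was not activated and Fas was not deleted. Bleomycin, corn oil and the time after instillation therefore form a single factor against naive, and their parts cannot be told apart. The libraries with Fas deleted, used in the shared fit and in a screen below, came from mice of that genotype given bleomycin and then tamoxifen in corn oil. Lung cells negative for CD45, CD31 and CD326 (the leukocyte, endothelial and epithelial surface markers) were sorted, at least 300000 per population. The labels name them fibroblasts, and the study's methods give replicates as individual animals. The labels do not tie a library to an animal.

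Bleomycin injures the alveolar epithelium. Fibroblasts then proliferate, take on a matrix-producing and contractile state and lay down collagen, and after a single dose in mice this state and the deposited matrix are largely cleared again. Lung mesenchyme holds alveolar fibroblasts (including lipid-laden lipofibroblasts) that support the epithelium with growth factors, adventitial fibroblasts around vessels and airways, pericytes, smooth muscle and mesothelium. Week 3, near the height of fibrosis in this model, is given beside week 6 where it shows which changes were still present. Both weeks were compared with the same 4 naive libraries, so their fold changes share that error and no overlap between them was computed; the direct test was week 6 against week 3.

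The naive libraries held 20995314 to 25189096 counts assigned to genes and the week 6 libraries 19268717 to 24045888. Levels are given in CPM, the count of a gene scaled by the TMM-adjusted total of its library, in the order of replicates 1 to 4. Adjusted p-values are those of edgeR's quasi-likelihood test with Benjamini-Hochberg adjustment over the 15773 genes tested, and a gene was called at 0.05 or less. The exact permutation test over the 8 libraries has 70 arrangements and cannot go below p = 0.0286 with 4 libraries against 4. Week 6 replicate 2 stood apart, with the highest level of epithelial, endothelial, platelet and leukocyte transcripts of its group, and counts of list members that fell without it are given both ways. Week 3 replicate 1 stood apart as well. Its fibrillar collagens summed to 11830 CPM against 38110 to 48890 CPM in the other week 3 libraries, and its blood endothelial markers to 15660 CPM against 4281 to 5447 CPM. All groups share an estimate of the spread, so this library also touches the week 6 calls. In bulk samples fewer cells of a type and less RNA per cell cannot be told apart. Xist exceeded the summed Y-linked transcripts in 3 of 4 naive, 4 of 4 week 6 and 1 of 4 week 3 libraries, so the groups did not hold the same mix of sexes.

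At week 6, 563 genes were called higher (3.57% of the genes tested) and 274 lower (1.74%). The corresponding counts at week 3 were 3484 (22.1%) and 3033 (19.2%). The median absolute log2 fold change was 1.75 for the 563 and 0.43 for the 274, and with an added requirement of an absolute log2 fold change of 1 there were 385 higher and 28 lower genes. Of the higher genes, 196 had a naive mean under 1 CPM and 118 a naive mean of at least 20 CPM. The median log2 fold change over all genes tested was 0.00. The 4 week 6 libraries lay wholly above or below the naive libraries for 518 of the higher and 253 of the lower genes; over all genes tested 9.27% lay wholly above and 7.35% wholly below. Without week 6 replicate 2 the counts were 305 higher and 110 lower, and without week 6 replicate 1 they were 681 and 315. Without week 3 replicate 1, an alternative added after the data were seen, they were 769 and 511.

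In the direct test, 142 of the 563 genes were higher at week 6 than at week 3, 78 were lower and 343 were not called. Of the 274 lower genes, 96 were above their week 3 level, 26 below it and 152 not called. Over all genes tested, 12% were called higher and 10.9% lower at week 6 than at week 3. The counts behind these shares rose from 1890 to 2574 and from 1725 to 2305 without week 3 replicate 1. The 563 and 274 genes were chosen by their week 6 levels, and the direct test reused those week 6 libraries. Their counts are therefore shifted by the choice, cannot be set against these shares and do not test persistence.

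The genes with the smallest adjusted p were Igfbp2, Nt5e, Ndnf and Itgb6. Igfbp2, which encodes a binding protein for insulin-like growth factors (GRCm38 chr1:72824503-72852474, plus strand), was at 7.32, 4.35, 9.36 and 7.32 CPM in naive libraries and at 112, 192, 145 and 120 CPM at week 6. The lowest week 6 library thus lay far above the highest naive library. The log2 fold change was 4.33 with an SE of 0.24 (adjusted p = 1.09e-08, exact permutation p = 0.0286). Igfbp2 was at 59.4 ± 3.21 CPM (SD, n = 4) at week 3 and rose further from week 3 to week 6, by a log2 fold change of 1.26 (adjusted p = 5.81e-04).

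Nt5e encodes CD73, the ectoenzyme that makes adenosine from AMP (chr9:88327197-88372092, plus strand). Its naive levels were 5.56, 5.91, 5.11 and 5.24 CPM and its week 6 levels 22.6, 43.1, 29.3 and 25.7 CPM, with no overlap and with replicate 2 the highest. The log2 fold change was 2.47 with an SE of 0.20 (adjusted p = 2.94e-06). Ndnf, a secreted neurotrophic factor (chr6:65671590-65712326, plus strand), was at 39.9, 34.6, 41.9 and 35.5 CPM in naive and at 113, 222, 170 and 144 CPM in week 6 libraries. Its log2 fold change was 2.09 with an SE of 0.19 (adjusted p = 8.06e-06).

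Itgb6, the β6 chain of the epithelial integrin that activates latent TGF-β (chr2:60598292-60722643, minus strand), was at 1.98, 0.719, 1.34 and 1.17 CPM in naive and at 16.9, 38, 30.4 and 20.4 CPM in week 6 libraries. The log2 fold change of 4.34 had an SE of 0.39 (adjusted p = 8.69e-06), and the level rose by a log2 fold change of 1.64 between weeks 3 and 6 (adjusted p = 0.0024). The 10 higher genes taken by adjusted p also needed no overlap, an absolute log2 fold change of at least 1 and at least 5 CPM in the higher group. Tmem37, Epn3, the protease-activated receptor gene F2rl1, the membrane protease gene St14 and 2310007B03Rik followed among these 10 genes. Each was under 2 CPM in every naive library and between 4.13 and 11.6 CPM at week 6. Cdkn1a, the remaining gene of the 10, is described with the cell-cycle inhibitors. Itgb6 was the single call among 19 integrin subunits. Among 13 genes of the IGF pathway Igfbp2 was the single higher call. Irs1, the insulin receptor substrate, was the single lower one (log2 fold change −0.62, SE 0.16, adjusted p = 0.0275). Irs1 was not called without week 6 replicate 2, 3 or 4 or without naive replicate 1, 2 or 3.

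**Figure D1:**
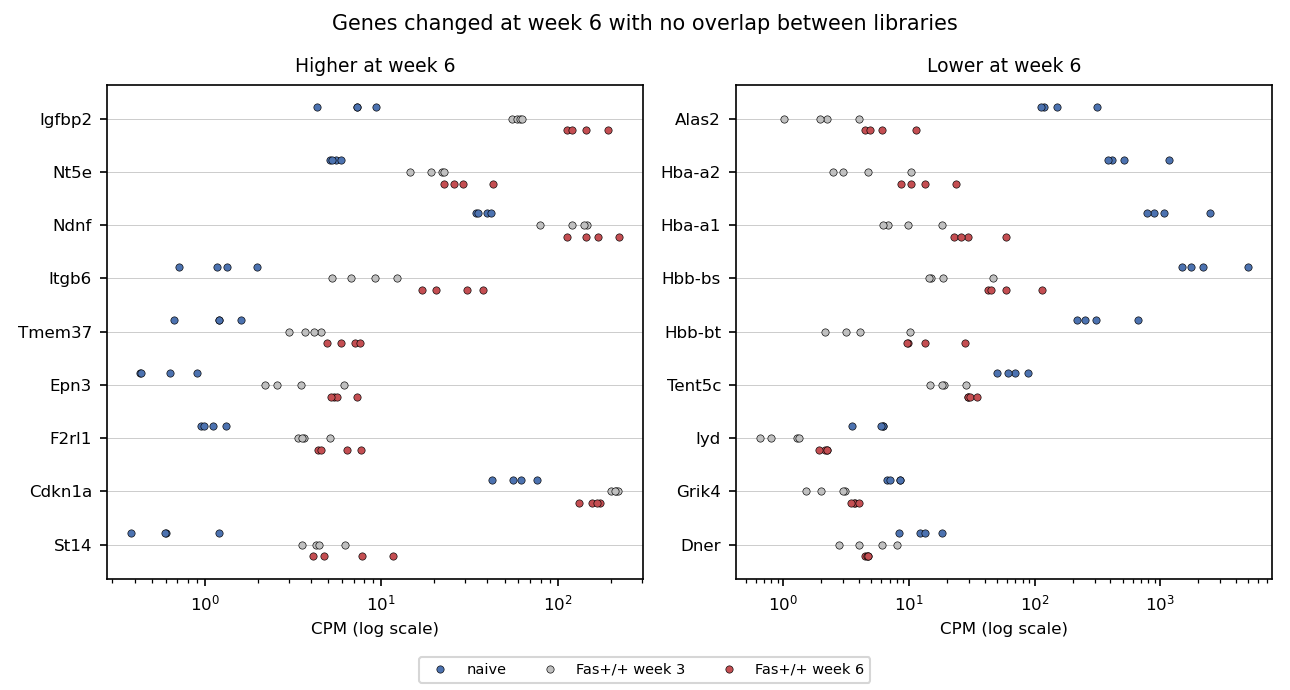
CPM (log axis) of 9 of the 10 higher and 9 of the 10 lower genes with the smallest adjusted p among the called genes that met the following rule. They had no overlap between naive and week 6 libraries, an absolute log2 fold change of at least 1 and at least 5 CPM in the higher group. Each point is 1 library, blue for naive, grey for Fas+/+ at week 3 and red for Fas+/+ at week 6. Igfbp2 runs from 112 to 192 CPM at week 6 against 4.35 to 9.36 CPM in naive libraries, and Hba-a1 from 22.8 to 58.5 CPM against 788 to 2495 CPM.

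Transcripts of cells that the sort was meant to remove differed between the groups. Their counts called higher stand against 3.57% of all genes tested, and those called lower against 1.74%. All 7 markers of alveolar epithelial type I cells were called higher at week 6 (median log2 fold change 2.92), and 7 of 10 markers of type II cells, with a median of 5.07. The summed level of the type I markers ranged from 79.5 to 209.5 CPM in naive and from 840 to 1897 CPM in week 6 libraries. That of the type II markers ranged from 85.3 to 99.2 CPM in naive libraries and was 102.8, 474, 114 and 123 CPM at week 6, where replicate 2 alone was far above the others.

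Ager, a defining type I marker, was at 80, 20.1, 99 and 40.5 CPM in naive and at 558, 1031, 615 and 429 CPM in week 6 libraries, with no overlap (log2 fold change 3.46, SE 0.56, adjusted p = 0.00115). Sftpc, the surfactant protein that defines type II cells, was at 1.16, 1.96, 0.669 and 0.0866 CPM in naive and at 2.66, 173, 5.5 and 8.01 CPM in week 6 libraries. Its log2 fold change of 5.58 (SE 1.20, adjusted p = 0.00955) rested on replicate 2, without which the adjusted p was 0.061. Without that library 6 of the type I and 3 of the type II markers were called. Epcam, which encodes CD326 itself, Cdh1, Krt8, Krt18 and Nkx2-1 were the 5 of 10 pan-epithelial markers called higher, and 5 were called without replicate 2 as well.

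Among platelet and megakaryocyte markers 8 of 10 were called higher (5 without replicate 2). Ppbp, a platelet chemokine, was at 0, 0.28, 0 and 0 CPM in naive and at 0.888, 23, 8.38 and 1.36 CPM in week 6 libraries. Tubb1, the tubulin of platelets, was at 0.129, 0.0799, 0 and 0.0866 CPM in naive and at 1.33, 21.5, 11.4 and 3.47 CPM in week 6 libraries, a log2 fold change of 6.85 (SE 1.11, adjusted p = 0.00117). Both were highest in replicates 2 and 3 and overlapped no naive library.

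Of the hematopoietic markers 6 of 15 were called higher (2 without replicate 2), namely Ptprc, Lyz2, Csf1r, Cd79a, Igkc and Cd74, and the summed level of the list was 20.1 to 36.6 CPM in naive and 122 to 428 CPM in week 6 libraries. Ighg3, an immunoglobulin heavy chain gene, was at 0 in each naive library and at 2.62, 12.5, 6.69 and 5.99 CPM at week 6, so that no fold is given. Igkc, the kappa light chain, was at 10.3, 0.32, 11.6 and 8.74 CPM in naive and at 62.1, 93.7, 52.1 and 69.2 CPM in week 6 libraries (log2 fold change 3.17, SE 0.61, adjusted p = 0.00419). Ptprc, which encodes CD45, was low throughout, at 0.0431 to 0.239 CPM in naive and at 0.161, 4.37, 0.397 and 0.453 CPM at week 6. Of the mesenchymal, endothelial and epithelial barcodes described below, Csf1r and Lyz2 were highest in epithelial, Cd74 in endothelial and Igkc in mesenchymal ones. Ptprc and Cd79a had under 10 UMIs in these classes. The 7 hematopoietic barcodes, which these 6 genes helped to define, were left out of that comparison. It therefore cannot show the share of leukocytes in these transcripts.

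Blood endothelial markers were higher in sum, at 311 to 762 CPM in naive and 822 to 3113 CPM in week 6 libraries, with 2 of 20 called (Vwf and Ecscr) and 19 of 20 positive. Of 6 lymphatic markers 2 were called. None of the endothelial calls, blood or lymphatic, held without week 6 replicate 2, 3 or 4 or without any single naive library. The fit to naive and week 6 libraries alone, in contrast, called 17 of the 20 blood and 5 of the 6 lymphatic markers. Pecam1, which encodes CD31, was at 18.4, 54.2, 26.7 and 23.6 CPM in naive and at 69.2, 291, 197 and 112 CPM in week 6 libraries, with no overlap and with an adjusted p of 0.192.

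Red cell transcripts went the other way, with 6 of 10 markers called lower, here and without replicate 2. Hba-a1, an α-globin gene, was at 890, 788, 2495 and 1070 CPM in naive and at 29.2, 58.5, 22.8 and 25.7 CPM in week 6 libraries (log2 fold change −5.26, SE 0.52, adjusted p = 1.72e-05). The other globin genes Hba-a2, Hbb-bs and Hbb-bt, the heme synthesis gene Alas2 and Tent5c were also among the 10 lower genes taken by the same rule. The globin copies share sequence, so counts could be split between them. The part of these admixed transcripts in the calls below was not tested by any fit.

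**Figure D2:**
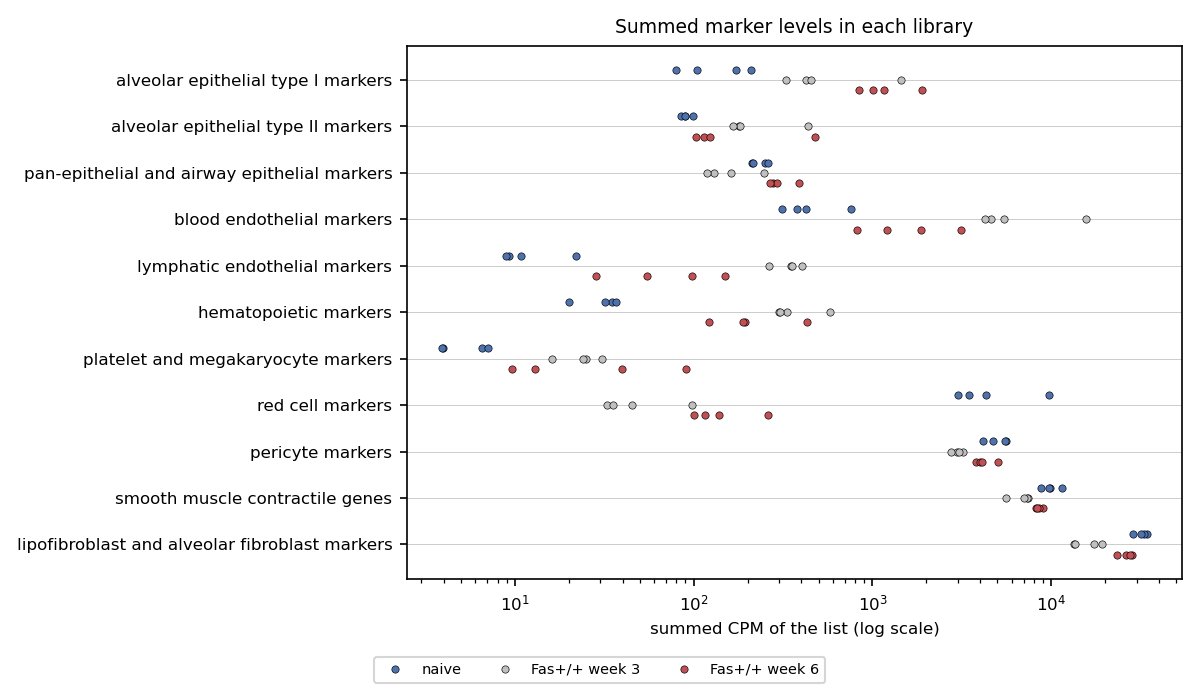
Summed CPM (log axis) of marker lists in each library; blue points are naive, grey Fas+/+ at week 3 and red Fas+/+ at week 6. Type I epithelial markers run from 840 to 1897 CPM at week 6 against 79.5 to 209.5 CPM in naive libraries, and red cell markers from 100.7 to 261.5 CPM against 3006 to 9655 CPM, while pericyte markers overlap.

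The single-cell libraries of the same sort came 1 from pooled naive mice and 1 from pooled Fas+/+ mice at week 6. They were used to look up the class of barcodes in which a bulk gene had its highest level. After removal of barcodes with under 200 or over 7500 genes or over 20% mitochondrial UMIs, 603 of 766 naive and 3240 of 3675 week 6 barcodes were kept. Barcodes were assigned to a class by summed UMIs of its markers, at least 5 and at least 2 times those of the next class. In the naive library 553 barcodes were mesenchymal (91.7%), 9 endothelial and 3 epithelial. In the week 6 library 1767 were mesenchymal (54.5%), 1243 endothelial (38.4%), 55 epithelial (1.70%) and 7 hematopoietic. With 1 library per group these shares carry no test. The libraries shared 119 kept barcodes, 19.7% of the naive ones, and 114 of them had more UMIs in the naive library, so naive values below are given with and without barcodes found in both. The week 6 values moved by at most 0.987% without them and are given once.

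Levels in these libraries are UMI CPM, computed like CPM on the summed UMIs of the class. Placement compared the mesenchymal, endothelial and epithelial barcodes of the week 6 library and left out the hematopoietic ones. A gene was placed in the class where its UMI CPM was highest by a factor of at least 2, given at least 10 UMIs. This ranks the level per UMI of a class and not the number of UMIs the class gave. At week 6 epithelial barcodes held 398172 UMIs in all and mesenchymal ones 26316713. A gene placed in epithelial barcodes can thus have more of its UMIs in mesenchymal ones. The source of the bulk transcripts was not tested. The placement was added after the data were seen. The markers that define the classes were not left out, so their own placement followed from the definition. Among the higher genes placed in epithelial barcodes these were Epcam, Cdh1, Krt8, Krt18, Sftpc, Sftpb, Sftpa1, Ager, Hopx, Cldn18 and Napsa. Of the higher bulk genes 474 could be placed and 222 of those (46.8%) were highest in epithelial barcodes, against 826 of the 13883 placed genes of the whole table (5.95%). Another 63 (13.3%) were highest in endothelial, 38 (8.02%) in mesenchymal barcodes and 151 (31.9%) in none by that factor. Of the 261 lower genes placed, 84 (32.2%) were highest in mesenchymal barcodes, against 16.6% of all placed genes, and 2 each in endothelial and epithelial barcodes. Igfbp2, Nt5e, Ndnf, Itgb6 and Tmem37 were all highest in epithelial barcodes.

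**Figure D3:**
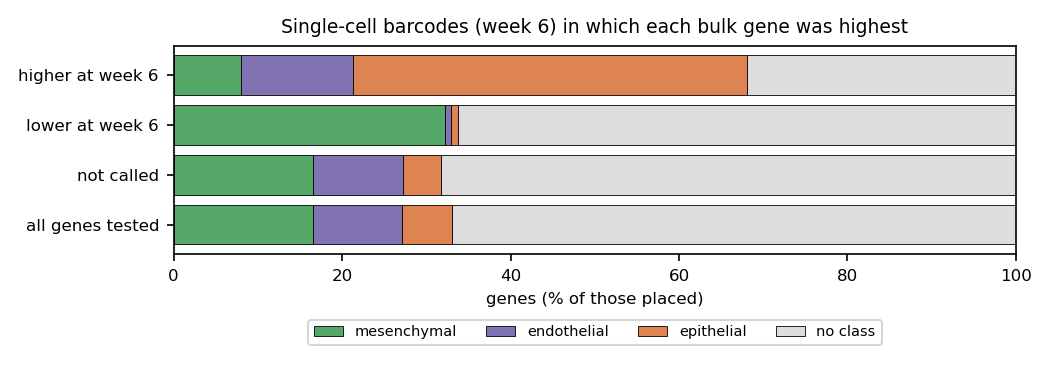
Share of placed genes (percent) that were highest in mesenchymal, endothelial or epithelial barcodes of the week 6 single-cell library, or in none of them by a factor of 2, for genes higher, lower and not called in the bulk comparison and for all genes tested. The level was highest in epithelial barcodes for 46.8% of the placed higher genes and 5.95% of all placed genes. This ranks levels per UMI of a class and not the number of UMIs. The markers that define the classes are included.

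Levels within the mesenchymal barcodes are those of 1 library per group and carry no test. Igfbp2 stood at 4.02 UMI CPM in naive mesenchymal barcodes (95% exact Poisson interval 2.52 to 6.09, 5.08 without shared barcodes) and at 50.6 in those of week 6 (48 to 53.5). In the same week 6 library it stood at 3370 UMI CPM in epithelial and at 1.56 in endothelial barcodes. Ndnf was at 25.8 UMI CPM in naive mesenchymal barcodes (21.7 to 30.4, 27.2 without shared barcodes) and at 89.5 in those of week 6 (85.9 to 93.1), against 1612 in epithelial and 3.52 in endothelial barcodes.

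Itgb6 stood at 0.365 UMI CPM in naive mesenchymal barcodes (0.0443 to 1.32, 0.508 without shared barcodes) and at 0.304 in those of week 6 (0.131 to 0.599), so no difference was detectable at this depth, against 322 in epithelial barcodes. Nt5e stood at 2.56 UMI CPM in naive mesenchymal barcodes (1.4 to 4.29, 1.78 without shared barcodes) and at 6.54 in those of week 6 (5.59 to 7.59), against 249 in epithelial barcodes. These intervals cover counting error only.

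In the fit of all groups few genes of the fibrotic state itself were called at week 6, and more were called in some of the alternatives. Over all genes tested 3.57% were called higher and 1.74% lower at week 6, so few or no calls in a short list are near that share. At week 3, 22.1% of all genes were higher, and 10.9% were lower at week 6 than at week 3. None of the 11 fibrillar collagen genes was called at week 6, with a median log2 fold change of −0.14, while 6 were called higher at week 3 (median 1.04) and 8 were called lower at week 6 than at week 3. Col1a1, the main chain of type I collagen, was at 3647, 7387, 5413 and 7229 CPM in naive and at 3937, 3991, 4343 and 4664 CPM in week 6 libraries, against 3025, 16240, 17200 and 12120 CPM at week 3. The week 6 values sat within the naive range (log2 fold change −0.48, SE 0.38, adjusted p = 0.536). Elastic fiber genes, collagen crosslinking enzymes, metalloproteinases with their TIMP inhibitors and small leucine-rich proteoglycans likewise gave no call among 18, 25, 19 and 10 genes tested. Without week 3 replicate 1 the fibrillar Col24a1 was called higher, and so were the elastic fiber gene Ltbp2 and the metalloproteinase inhibitor gene Timp1, whereas Ltbp4 and the collagen processing genes Adamts2 and Pcolce2 were called lower.

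Of 16 profibrotic fibroblast markers 1 was called higher at week 6, against 13 at week 3, and 13 were called lower at week 6 than at week 3. The shares over all genes tested were 3.57%, 22.1% and 10.9%. The fit to naive and week 6 libraries alone called 7 of the 16, and the fit without week 3 replicate 1 called 6, Cthrc1, Grem1, Ltbp2, Runx1, Sfrp1 and Spp1. The gene called with all libraries was Cthrc1, a secreted protein that marks the collagen-producing fibroblasts of injured lung. It was at 0.388, 0.519, 0.286 and 0.736 CPM in naive and at 1.57, 3.57, 1.98 and 8.16 CPM in week 6 libraries, above every naive library but below the mean of 45.5 ± 27.9 CPM (SD, n = 4) at week 3, where replicate 1 stood at 5.84 CPM (log2 fold change from naive 2.95, SE 0.76, adjusted p = 0.0283; from week 3 −3.58, adjusted p = 7.36e-04). The call against naive was lost with any of 5 libraries left out, week 6 replicates 2 and 4 among them. In the single-cell data it was highest in mesenchymal barcodes, at 150 UMI CPM at week 6 (145 to 154) and 0.548 in the naive library (0.113 to 1.6, 0.762 without shared barcodes). That relative difference, from 1 pooled library per group, was far larger than the bulk one, and the reason was not tested.

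Tnc, a matricellular protein of the provisional matrix, was at 128, 173, 127 and 181 CPM in naive and at 208, 280, 340 and 459 CPM in week 6 libraries. The groups did not overlap, but the log2 fold change of 1.08 had an SE of 0.56 and did not pass (adjusted p = 0.297). Acta2, the smooth muscle actin of myofibroblasts, was at 1202, 2079, 1674 and 1617 CPM in naive and at 1481, 1366, 1417 and 1306 CPM in week 6 libraries (adjusted p = 0.642). It had not been raised at week 3 (log2 fold change −0.53, adjusted p = 0.0846), so its week 6 level shows no return from a rise. Fn1, fibronectin, had a log2 fold change of 0.29 with an SE of 0.34 (adjusted p = 0.697).

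Proliferation genes gave no call either. None of 30 was called at week 6 (median log2 fold change −0.44), when 3.57% of all genes were called higher and 1.74% lower. At week 3, 29 were called higher (median 2.24), against 22.1% of all genes. In the direct test 29 were lower at week 6 than at week 3, against 10.9% of all genes. Mki67, a marker of cycling cells, was at 8.83, 10.5, 14.2 and 42.3 CPM in naive and at 5.81, 14.1, 6.99 and 10.8 CPM in week 6 libraries, with naive replicate 4 far above the others. Its fall from week 3 was a log2 fold change of −2.87 (adjusted p = 0.00264).

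**Figure D4:**
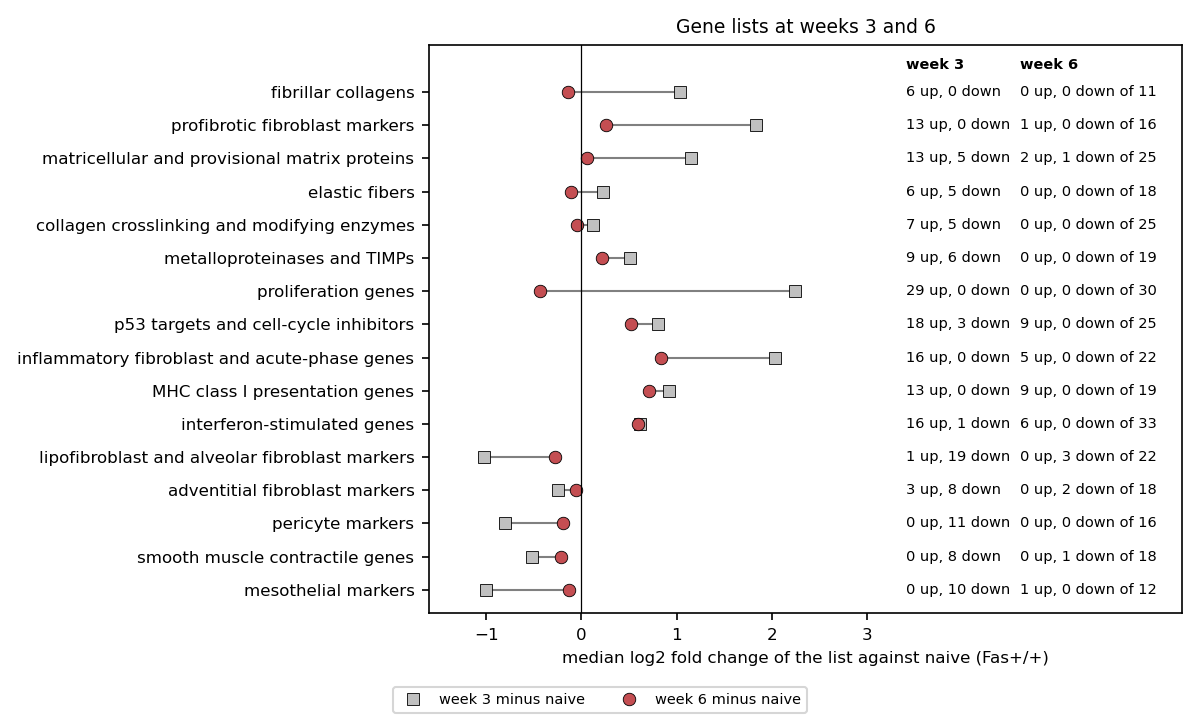
Median log2 fold change against naive of each gene list in Fas+/+ cells at week 3 (grey squares) and week 6 (red circles), with the number of genes called higher and lower beside it; both weeks use the same naive libraries. Proliferation genes go from 2.24 to −0.44, fibrillar collagens from 1.04 to −0.14, MHC class I genes from 0.91 to 0.71 and p53 targets from 0.80 to 0.52.

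Some targets of p53 and cell-cycle inhibitors were called higher at week 6. p53 is a transcription factor that halts the cell cycle or starts apoptosis after DNA damage. Of 25 genes tested, 9 were called higher and none lower at week 6, the median log2 fold change being 0.52, with 21 positive, against 3.57% of all genes called higher. With single naive or week 6 libraries left out the count ranged from 6 to 9. At week 3, 18 were higher and 3 lower, against 22.1% and 19.2% of all genes tested. In the direct test 8 were lower at week 6 than at week 3, against 10.9% of all genes (12 without week 3 replicate 1). The fit to naive and week 6 libraries alone called 14 higher at week 6. Several of these genes hold p53 motifs close to their start, and the windows are shown for the called genes in which the p53 decamer motif (on either strand) was found between 250 bases before and 50 bases after the RefSeq start (build GRCm38.p6), with the matching bases in capitals.
Cdkn1a, chr17:29090891-29090952, plus strand: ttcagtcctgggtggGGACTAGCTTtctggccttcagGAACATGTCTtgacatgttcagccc
Mdm2, chr10:117710920-117710959, minus strand: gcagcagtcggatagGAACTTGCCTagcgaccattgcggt
Bax, chr7:45467075-45467114, minus strand: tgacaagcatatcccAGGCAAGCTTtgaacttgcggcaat
Aen, chr7:78895922-78895961, plus strand: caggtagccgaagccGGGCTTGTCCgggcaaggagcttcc

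The decamer was present in 4 of the 9 promoters of the called genes, in 6 of the 19 promoters found for the whole list (31.6%) and in 8.37% of 27025 RefSeq promoters. A match describes the sequence and does not show binding.

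Cdkn1a encodes p21, the inhibitor of cyclin-dependent kinases and a main target of p53 (gene chr17:29090976-29100727). It was at 42.4, 62, 55.9 and 76 CPM in naive and at 156, 174, 132 and 167 CPM in week 6 libraries. The lowest week 6 library lay above the highest naive library, and the log2 fold change was 1.41 (SE 0.16, adjusted p = 6.63e-05). At week 3 Cdkn1a was at 211 ± 8.93 CPM (SD, n = 4), and the decline to week 6 did not pass the test (log2 fold change −0.42, adjusted p = 0.0607).

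Cdkn2b, which encodes the inhibitor p15, was at 1.72, 1.88, 2.1 and 2.12 CPM in naive and at 4.04, 8.45, 6.15 and 7.1 CPM in week 6 libraries (log2 fold change 1.72, SE 0.26, adjusted p = 6.97e-04). Mdm2, the ubiquitin ligase that holds p53 in check, differed by less but with little spread, at 39.9, 37.2, 35.9 and 39 CPM in naive and 45.6, 51.7, 48.8 and 49.8 CPM in week 6 libraries (log2 fold change 0.36, SE 0.07, adjusted p = 0.00405). Mdm2 had fallen from week 3 by 0.43 on the log2 scale (adjusted p = 4.23e-04).

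Bax, the pore-forming effector of mitochondrial apoptosis, was at 28.7, 25.1, 26.3 and 25.3 CPM in naive and at 34.7, 34.4, 34.9 and 35.2 CPM in week 6 libraries (log2 fold change 0.40, SE 0.08, adjusted p = 0.00528). Aen, a p53-induced nuclease, had a log2 fold change of 0.58 (SE 0.12, adjusted p = 0.00574), and Eda2r, a p53-induced receptor of the TNF receptor family, of 0.85 (SE 0.18, adjusted p = 0.0083). None of the 9 genes overlapped between the groups, which also held for 518 of all 563 higher genes. The calls for the remaining Phlda3, Gdf15 and Psrc1 were lost without week 6 replicate 2 and without 1 to 5 other libraries.

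Of the 9 genes Cdkn2b and Psrc1 were highest in epithelial barcodes by the factor of 2, Eda2r in mesenchymal ones and the others in no class. In mesenchymal barcodes Cdkn1a stood at 107 UMI CPM in the naive library (98.2 to 116, 80.2 without shared barcodes) and at 191 at week 6 (186 to 196), when it stood at 412 in endothelial and 663 in epithelial barcodes. Mdm2 stood at 36.5 (31.6 to 42, 35 without shared barcodes) and at 70.7 (67.5 to 74). Phlda3, an inhibitor of Akt signaling, stood at 123 (114 to 133, 121 without shared barcodes) and at 219 (214 to 225).

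MHC class I presentation genes load and display peptides from inside the cell to CD8 T cells. All 19 tested had a positive log2 fold change (median 0.71). Of these, 9 were called higher at week 6, against 3.57% of all genes tested, and 13 at week 3, against 22.1%. The calls were close to the threshold: without week 6 replicate 2 or replicate 3, 2 genes of the list were called, and over all left-out naive and week 6 libraries the count ranged from 2 to 10. Week 6 replicates 2 and 3 had the highest summed levels, at 4984 and 5182 CPM, and replicate 1 the lowest, at 3797 CPM, above the naive range of 2886 to 3574 CPM. Replicates 2 and 3 were also the highest and replicate 1 the lowest for the summed blood endothelial markers, at 822, 3113, 1861 and 1211 CPM, whose part in the result was not tested. The H2 genes are near-identical to each other in parts, so their counts are uncertain.

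B2m, the invariant light chain of every class I molecule (chr2:122147686-122153083, plus strand), was at 486, 470, 420 and 539 CPM in naive and at 598, 908, 888 and 736 CPM in week 6 libraries. The groups did not overlap (log2 fold change 0.71, SE 0.13, adjusted p = 0.00315). Nlrc5, the transactivator of class I genes, was at 3.92, 2.63, 1.34 and 3.42 CPM in naive and at 6.38, 17.2, 15.5 and 12.4 CPM in week 6 libraries (log2 fold change 2.18, SE 0.46, adjusted p = 0.0085). H2-K1, a classical heavy chain, was at 277, 303, 242 and 346 CPM in naive and at 403, 661, 666 and 544 CPM in week 6 libraries. Its log2 fold change of 0.96 (SE 0.25, adjusted p = 0.0328) was no longer called with any of 6 libraries left out.

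The other called members were H2-D1, H2-Q4, H2-Q7, H2-T23, the peptide transporter gene Tap1 and the immunoproteasome gene Psmb8, with log2 fold changes of 0.61 to 2.37. At week 6 H2-K1, H2-D1 and Nlrc5 were highest in endothelial barcodes, and B2m in no class. H2-K1 stood at 2682 UMI CPM in endothelial barcodes of week 6. In mesenchymal barcodes it stood at 458 in the naive library (441 to 477, 359 without shared barcodes) and at 650 at week 6 (640 to 660). B2m stood at 776 (753 to 800, 749 without shared barcodes) and at 1124 (1112 to 1137) in mesenchymal and at 1963 in endothelial barcodes of week 6.

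Of 33 interferon-stimulated genes 31 had a positive log2 fold change (median 0.59) and 6 were called higher, against 3.57% of all genes tested. The 6 were the antiviral synthetases Oas1a and Oas1g, the transcription factor Irf7, the deubiquitinase-like Usp18, the tetherin gene Bst2 and the GTPase gene Igtp. Without week 6 replicate 2 or replicate 3, 1 gene of the list was called, and without replicate 1, 17 were. The summed level of the list was highest in replicate 3 and lowest in replicate 1, and the summed blood endothelial markers were also lowest in replicate 1. Bst2 and Igtp were highest in endothelial barcodes and Oas1a, Oas1g, Irf7 and Usp18 in no class. Oas1a was at 1.46, 0.958, 0.239 and 1.43 CPM in naive and at 2.38, 4.88, 6.05 and 3.12 CPM in week 6 libraries (log2 fold change 1.99, SE 0.37, adjusted p = 0.00371). Bst2 was at 31.3, 31.6, 25.4 and 29.9 CPM in naive and at 35, 51.2, 66.5 and 41 CPM in week 6 libraries, with replicate 3 the highest (log2 fold change 0.71, SE 0.17, adjusted p = 0.019).

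The interferon-stimulated response element GAAANNGAAA (N is any base, either strand, overlapping matches counted) was found in the promoter windows of 18 of 26 genes of the interferon list (69.2%), in 4 of 16 of the MHC class I list and in 3.49% of 27025 RefSeq promoters. The Oas1a and Oas1g windows are the same sequence. Whether reads were shared between the transcripts of these neighbouring genes was not examined. The windows of called genes are shown with the matched bases in capitals.
B2m, chr2:122147533-122147572, plus strand: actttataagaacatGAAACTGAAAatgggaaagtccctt
H2-T23, chr17:36032801-36032840, minus strand: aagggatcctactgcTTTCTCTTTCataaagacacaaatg
Oas1a, chr5:120907515-120907560, minus strand: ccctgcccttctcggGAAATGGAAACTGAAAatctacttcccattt
Bst2, chr8:71537572-71537617, minus strand: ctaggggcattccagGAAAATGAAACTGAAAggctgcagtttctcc
Igtp, chr11:58199507-58199546, plus strand: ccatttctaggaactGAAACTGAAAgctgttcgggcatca

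**Figure D5:**
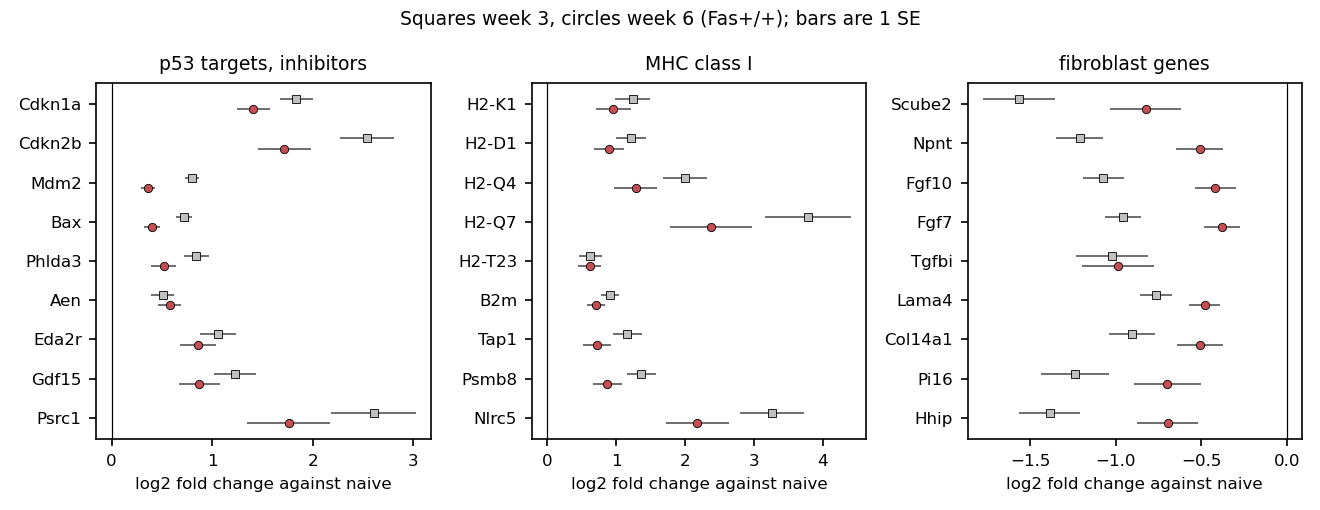
Log2 fold change against naive with bars of 1 SE for p53 targets and inhibitors, MHC class I genes and fibroblast genes in Fas+/+ cells at week 3 (grey squares) and week 6 (red circles). The genes were drawn because they were called at week 6, and both weeks use the same naive libraries; week 6 points run from 0.36 for Mdm2 to 2.37 for H2-Q7 and from −0.99 for Tgfbi to −0.38 for Fgf7.

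Of 22 inflammatory and acute-phase genes tested, 5 were called higher, against 3.57% of all genes: Saa3, Lcn2, Hp, C4b and Ccl2. Saa3, Hp and C4b were highest in mesenchymal and Lcn2 in epithelial barcodes. None of the 22 was lower (median log2 fold change 0.84), and 4 to 11 were called higher with single naive or week 6 libraries left out. Without week 3 replicate 1, 11 were higher and Cxcl14 lower. Saa3, an acute-phase serum amyloid (chr7:46711998-46715700, minus strand), was at 1.59, 1.32, 2.44 and 1.91 CPM in naive and at 7.59, 49.5, 214 and 45.5 CPM in week 6 libraries. All week 6 libraries lay above all naive ones, but they spanned a wide range among themselves (log2 fold change 5.45, SE 0.95, adjusted p = 0.00202).

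Lcn2, an iron-siderophore binding protein, was at 0.345, 0.599, 0.143 and 1.3 CPM in naive and 3.43, 20.9, 70.2 and 21.2 CPM in week 6 libraries (log2 fold change 5.57, SE 0.94, adjusted p = 0.00157). The naive libraries did not share the order seen for Saa3. Hp, haptoglobin, was at 4.48, 6.47, 8.21 and 15.3 CPM in naive and at 28.4, 60.1, 106 and 93.5 CPM in week 6 libraries (log2 fold change 3.06, SE 0.56, adjusted p = 0.00293). The summed epithelial, endothelial, hematopoietic and platelet markers were highest in replicate 2 of the week 6 group. The endothelial, hematopoietic, platelet and type II epithelial sums were lowest in replicate 1, the type I and pan-epithelial sums in replicate 4. Their part in the acute-phase levels was not tested. Replicate 1 was the lowest and replicate 3 the highest of the week 6 group for all of Saa3, Lcn2 and Hp. Ccl2, the monocyte chemokine, was likewise lowest in replicate 1 and highest in replicate 3 of that group (log2 fold change 2.48, SE 0.57, adjusted p = 0.015). Ccl2 was not called without week 6 replicate 3 or naive replicate 1.

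C4b, complement component C4, differed from these in its small spread. It was at 1392, 1607, 1390 and 1542 CPM in naive and at 2518, 2603, 2719 and 2825 CPM in week 6 libraries (log2 fold change 0.85, SE 0.16, adjusted p = 0.00384). C4b was not called at week 3 (1881 ± 616 CPM, SD, n = 4, adjusted p = 0.0926; 0.00239 without week 3 replicate 1) and rose from week 3 to week 6 by a log2 fold change of 0.50 (adjusted p = 0.03).

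In mesenchymal barcodes Saa3 stood at 17.7 UMI CPM in the naive library (14.4 to 21.6, 24.6 without shared barcodes) and at 334 at week 6 (327 to 341). Hp stood at 3.29 (1.95 to 5.2, 2.29 without shared barcodes) and at 514 (505 to 523), and C4b at 356 (340 to 372, 249 without shared barcodes) and at 590 (581 to 599). At week 6 Saa3, Hp and C4b were at 9.78, 11.3 and 13.6 UMI CPM in endothelial barcodes. Between naive and week 6 the relative difference in mesenchymal barcodes was far larger than in bulk for Hp and smaller for Saa3. The reason was not tested.

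In the growth factor pathways most members did not pass. Of 13 Wnt ligand genes 4 were called higher, against 3.57% of all genes tested: Wnt3a, Wnt7a, Wnt10a and Wnt10b. The median of the list was −0.10. Wnt7a was at 0.689, 0.32, 0.478 and 0.433 CPM in naive and at 5.21, 11.2, 8.53 and 6.9 CPM in week 6 libraries (log2 fold change 4.04, SE 0.51, adjusted p = 1.68e-04) and was 1.90 higher on the log2 scale at week 6 than at week 3 (adjusted p = 0.00569). Wnt3a, Wnt7a and Wnt10b were highest in epithelial barcodes. Wnt10a was highest in mesenchymal barcodes but at most 1.86 CPM in any week 6 library. Its call was lost without week 6 replicate 2 or 4 or without any single naive library.

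Among 20 secreted Wnt inhibitors, R-spondins and Wnt targets 4 were called higher, against 3.57% of all genes tested: Frzb, Dkk2, Nkd2 and Rspo3. None of these calls held without week 6 replicate 2 or 4 or without naive replicate 1 or 3. In the fit without week 3 replicate 1, 5 were higher and 1 lower. Frzb, a secreted Frizzled-related inhibitor, was at 0.646, 0.519, 0.43 and 0.649 CPM in naive and at 1.78, 3.95, 2.28 and 7.75 CPM in week 6 libraries (log2 fold change 2.79, SE 0.74, adjusted p = 0.0348), against 24.9 ± 15.9 CPM (SD, n = 4) at week 3. Frzb and Cthrc1 were highest in the same week 6 library, replicate 4.

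Of 23 TGF-β ligand, receptor and latency genes Tgfb1 and Lrrc32 were called higher, against 3.57% of all genes tested. Neither was called without week 6 replicate 2 or replicate 3. The fit to naive and week 6 libraries alone called 5 higher and 2 lower. Tgfb1, the ligand itself, was at 32.6, 37.5, 39.3 and 39.4 CPM in naive and at 45.8, 66.5, 54 and 63.6 CPM in week 6 libraries. The groups did not overlap (log2 fold change 0.63, SE 0.16, adjusted p = 0.0297), and the call was lost with any of 7 libraries left out. Tgfb1 had fallen from 158 ± 39 CPM (SD, n = 4) at week 3, by 1.46 on the log2 scale (adjusted p = 5.57e-05). Lrrc32, which anchors latent TGF-β at the cell surface, was at 116 to 160 CPM in naive and at 185 to 237 CPM in week 6 libraries (adjusted p = 0.0347) and was highest in endothelial barcodes.

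Among 24 BMP and activin genes Id3 and Inhbb were called higher, against 3.57% of all genes tested. Id3, a direct target of BMP signaling, was at 182, 210, 174 and 171 CPM in naive and at 274, 292, 269 and 297 CPM in week 6 libraries (log2 fold change 0.62, SE 0.08, adjusted p = 2.01e-04). It was at 297 ± 27.5 CPM (SD, n = 4) at week 3, and its level at week 6 was not called different from that (adjusted p = 0.57). Inhbb, an activin subunit, had a log2 fold change of 1.32 (SE 0.31, adjusted p = 0.0157). It was not called without week 6 replicate 2 or without naive replicate 1 or 3.

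Enzymes and receptors for extracellular ATP and adenosine gave 2 higher calls (P2rx4 and Nt5e) and 1 lower (Enpp3) of 16, against 3.57% and 1.74% of all genes tested. P2rx4, an ATP-gated cation channel (chr5:122707544-122729738, plus strand), was at 48.5, 47.3, 49 and 50.5 CPM in naive and at 63.7, 71.1, 70.4 and 70 CPM in week 6 libraries. The spread within each group was small beside the difference (log2 fold change 0.49, SE 0.05, adjusted p = 3.86e-05). At week 3 it was at 73.6 ± 3.28 CPM (SD, n = 4), and week 6 was not called different (adjusted p = 0.191). In mesenchymal barcodes P2rx4 stood at 57.4 UMI CPM in the naive library (51.2 to 64.1, 57.1 without shared barcodes) and at 78.8 at week 6 (75.4 to 82.2), when it stood at 91.9 in endothelial barcodes. Enpp3, an ectonucleotidase, was at 19.5, 24.8, 26.9 and 21.4 CPM in naive and at 12.6, 10.7, 12.7 and 11.7 CPM in week 6 libraries (log2 fold change −0.96, SE 0.19, adjusted p = 0.00566).

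Of the metabolic lists few members passed. Ass1, argininosuccinate synthase of arginine synthesis, was at 5.08, 4.75, 6.11 and 5.41 CPM in naive and at 11.1, 17.9, 12.4 and 16.2 CPM in week 6 libraries (log2 fold change 1.43, SE 0.19, adjusted p = 2.37e-04). Cyp26b1, which degrades retinoic acid, was at 3.19, 4.71, 2.82 and 5.41 CPM in naive and at 8.52, 12.9, 16.5 and 16.3 CPM in week 6 libraries (log2 fold change 1.74, SE 0.23, adjusted p = 2.25e-04). Both were well below week 3, by 1.59 and 1.55 on the log2 scale (adjusted p = 7.28e-05 and 2.19e-04). In mesenchymal barcodes Ass1 stood at 6.21 (4.3 to 8.68, 5.58 without shared barcodes) and 37.7 (35.4 to 40.1) UMI CPM and Cyp26b1 at 1.83 (0.876 to 3.36, 2.29 without shared barcodes) and 11.9 (10.6 to 13.3), naive and week 6. In endothelial barcodes of week 6 they stood at 74.2 and 23.5 UMI CPM. Lipid handling, cholesterol synthesis, glutathione and ER chaperone lists gave no call at week 6.

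A few markers of alveolar and adventitial fibroblasts were called lower, by small amounts. Of 22 lipofibroblast and alveolar fibroblast markers 3 were called lower and none higher at week 6 (median log2 fold change −0.28), against 1.74% and 3.57% of all genes tested. At week 3, 19 were lower (median −1.02), against 19.2% of all genes. In the direct test 19 were higher at week 6 than at week 3, against 12% of all genes. The fit to naive and week 6 libraries alone called 7 lower. Each of the 3 calls, Npnt, Fgf10 and Scube2, was lost without week 6 replicate 2, 3 or 4 and without naive replicate 1 or 3. Week 6 replicate 2 had the lowest summed level of the list, 23340 CPM. The other week 6 libraries were at 26270 to 28100 CPM and the naive ones at 28530 to 34190 CPM. Replicate 2 also had the highest summed endothelial and epithelial markers, and their part in the lower values was not tested.

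Scube2, a secreted protein that releases Hedgehog ligands (chr7:109798676-109865679, minus strand), was at 573, 448, 549 and 488 CPM in naive and at 353, 234, 306 and 268 CPM in week 6 libraries (log2 fold change −0.82, SE 0.21, adjusted p = 0.0259). Npnt, nephronectin, a ligand of integrin α8β1, was at 3043, 2750, 2739 and 3047 CPM in naive and at 2153, 1771, 2060 and 2150 CPM in week 6 libraries (log2 fold change −0.51, SE 0.14, adjusted p = 0.0355). Both had been lower still at week 3, at 174 ± 59.6 and 1251 ± 259 CPM (SD, n = 4).

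Fgf10 and Fgf7, growth factors for the alveolar epithelium, gave the 2 lower calls among 18 PDGF and FGF ligands and receptors, against 1.74% of all genes tested. Fgf10 was at 74.2, 62, 85.2 and 75.5 CPM in naive and at 60.7, 55.4, 52 and 54.2 CPM in week 6 libraries (log2 fold change −0.42, SE 0.12, adjusted p = 0.0478). Fgf7 was at 80.1, 79.6, 70.1 and 66.2 CPM in naive and at 59.7, 55.9, 54.6 and 57.4 CPM in week 6 libraries (log2 fold change −0.38, SE 0.10, adjusted p = 0.04). Neither overlapped between the groups, and neither was called without week 6 replicate 2, 3 or 4 or without naive replicate 1 or 3.

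The adventitial markers Pi16 and Col14a1 were the 2 lower calls of 18, against 1.74% of all genes tested, with 9 of the 18 positive and a list median of −0.06. Neither was called without week 6 replicate 2, 3 or 4, without naive replicate 2, 3 or 4 or with the replicate block. Pi16, a marker of adventitial progenitors, was at 297, 606, 477 and 713 CPM in naive and at 384, 307, 307 and 293 CPM in week 6 libraries, and naive replicate 1 overlapped the week 6 range (adjusted p = 0.0446, exact permutation p = 0.114). Hhip, the Hedgehog-interacting protein and the single call among 18 smooth muscle genes, overlapped in the same library (log2 fold change −0.70, SE 0.18, adjusted p = 0.0278) and was not called without week 6 replicate 2, without replicate 3 or with the replicate block. Pericyte markers gave no call among 16 genes, when 1.74% of all genes were lower. At week 3, 11 of them were lower, against 19.2% of all genes. Krt7 was the single call among 12 mesothelial markers; it was higher (log2 fold change 1.09, SE 0.23, adjusted p = 0.00962). Krt7 was highest in epithelial barcodes, and 10 of the 12 markers had been lower at week 3, against 19.2% of all genes.

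Lower genes that stayed called with every library left out included Lama4, Tgfbi, Iyd, Grik4, Dner and Nr4a2. Lama4, a laminin chain of vessel and muscle basement membranes, was at 834, 872, 934 and 863 CPM in naive and at 689, 531, 669 and 623 CPM in week 6 libraries (log2 fold change −0.48, SE 0.09, adjusted p = 0.00457). Tgfbi, a TGF-β-induced matrix protein, was at 124, 233, 189 and 208 CPM in naive and at 116, 91.4, 85.6 and 86.4 CPM in week 6 libraries (log2 fold change −0.99, SE 0.21, adjusted p = 0.0089). Dner, a ligand of Notch, was at 8.31, 18.4, 12.3 and 13.3 CPM in naive and at 4.48, 4.67, 4.61 and 4.73 CPM in week 6 libraries (log2 fold change −1.50, SE 0.27, adjusted p = 0.00235). Nr4a2, an immediate early nuclear receptor, had a log2 fold change of −1.09 (SE 0.24, adjusted p = 0.0106).

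The lower genes were also looked up in mesenchymal barcodes, without a test. Scube2 stood at 204 UMI CPM in the naive library (192 to 216, 241 without shared barcodes) and at 107 at week 6 (103 to 111). Npnt stood at 1286 (1256 to 1317, 1461 without shared barcodes) and at 808 (797 to 819), Hhip at 420 (403 to 438, 453 without shared barcodes) and 221 (215 to 227), and Dner at 8.95 (6.62 to 11.8, 9.9 without shared barcodes) and 2.74 (2.14 to 3.44). For Iyd, at 2.19 (1.13 to 3.83, 2.29 without shared barcodes) and 1.94 (1.44 to 2.55), no difference was detectable at this depth.

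The basement membrane list held calls in both directions. Of 21 genes 7 were called higher (5 without week 6 replicate 2) and 1, Lama4, lower, against 3.57% and 1.74% of all genes tested. Among the higher genes Col4a3 and Lamb3, chains of the alveolar and epithelial basement membrane, had log2 fold changes of 2.37 (SE 0.40, adjusted p = 0.00168) and 2.86 (SE 0.37, adjusted p = 1.71e-04). Both were highest in epithelial barcodes, whereas Lama4 was highest in mesenchymal ones. Among the other collagens Col28a1, a minor collagen related to type VI, was higher, at 11.5, 13.4, 9.46 and 16.1 CPM in naive and at 39.2, 55.4, 31.6 and 71.5 CPM in week 6 libraries (log2 fold change 1.97, SE 0.40, adjusted p = 0.00685). Col28a1 was highest in mesenchymal barcodes.

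Fas, the death receptor whose floxed alleles all of these mice carried, was at 23.9, 21.1, 21.9 and 21.4 CPM in naive and at 26.1, 32.7, 39.7 and 27.1 CPM in week 6 libraries (chr19:34290666-34327772, plus strand). The groups did not overlap (exact permutation p = 0.0286, the lowest that test can give). The log2 fold change of 0.51 had an SE of 0.20 and was not called (adjusted p = 0.158). At week 3 it was at 41 ± 11.3 CPM (SD, n = 4) and called higher than naive (log2 fold change 0.90, adjusted p = 0.00183). Of 15 Fas and extrinsic apoptosis genes only Bid, which links death receptors to mitochondria, was called at week 6, at 1.25, 1.96, 1.43 and 1.43 CPM in naive and 2.42, 4.08, 3.37 and 3.62 CPM in week 6 libraries (log2 fold change 1.15, SE 0.24, adjusted p = 0.00886). Among 20 BCL2 family and IAP genes Bax was the single call. The anti-apoptotic Bcl2 and Bcl2l1 did not overlap between the groups and did not pass (log2 fold changes −0.22 and 0.40, adjusted p = 0.0939 and 0.258). Such separation was common, since over all genes tested 9.27% lay wholly above the naive libraries and 7.35% wholly below. In mesenchymal barcodes Fas stood at 54.1 UMI CPM in the naive library (48.1 to 60.6, 57.9 without shared barcodes) and at 59.7 at week 6 (56.8 to 62.7), and in endothelial barcodes of week 6 at 239.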

How the data were processed

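Per the paper's methods and the submitters' processing notes, the authors trimmed bulk reads with skewer, aligned them with HISAT2 to GRCm38 (Ensembl annotation) and counted them per gene with HTSeq from stranded poly(A) libraries. They deposited raw counts per gene, and for the single-cell libraries UMI counts per barcode from Cell Ranger. The deposited normalized counts, the other 3 single-cell libraries and the study's own comparison columns were not used here.

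The counts of all 20 bulk libraries in 5 groups were fitted together with edgeR 4.0.16 in R 4.3.3 (filterByExpr, TMM, glmQLFit, glmQLFTest), which left 15773 of 47729 genes. DESeq2 1.42.0, limma 3.58.1 (under edgeR), RLE size factors, no filter, the compared groups alone, the replicate number as a block and each naive, week 3 and week 6 Fas+/+ library left out in turn served as alternatives. The fit was tested on simulated data. The exact permutation test used log2 CPM with a prior count of 2. CPM and UMI CPM are not corrected for length, so levels were compared between libraries and not between genes. Symbols of 15687 genes matched 1 GENCODE M21 gene, the source of the coordinates. Promoters came from RefSeq (GRCm38.p6).

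Depth was 19268717 to 25189096 counts per library. Single-cell intervals are exact Poisson intervals at 95%, and doublets were not called beyond the limit of 7500 genes. Fas was counted over all exons.

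The 50 gene lists, the members and the rule for named genes were chosen with earlier results of these data known. The rule took the 10 higher and 10 lower genes with the smallest adjusted p among called genes with no overlap, an absolute log2 fold change of at least 1 and at least 5 CPM in the higher group, the 5 largest changes in each direction among called genes at that level, up to 4 genes of each list with the smallest p, textbook members and Fas. Some genes that met the rule are not reported here.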

Additional observations from a re-analysis of the deposited data

Results flagged for a closer look

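Of 104 groups of 4 libraries, 8 held a library far from the other 3 by Dixon's criterion at 95%, where chance alone gives about 1 in 20. P2rx4 was at 63.7 CPM in week 6 replicate 1, below the others. Iyd was at 3.53 CPM in naive replicate 1, also below the others. Hba-a1 was at 2495 CPM in naive replicate 3, Mki67 at 42.3 CPM in naive replicate 4 and Ppbp at 0.28 CPM in naive replicate 2, each above the rest of its group. Sftpc was at 173 CPM and the summed type II epithelial markers at 474 CPM in week 6 replicate 2. The summed lymphatic endothelial markers were at 22 CPM in naive replicate 2.

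For 44 genes the change from naive at week 6 was tested against that at week 3. The test was the direct contrast of the groups, in which the naive libraries cancel. It reused the week 6 libraries by which most of these genes were chosen. Genes are listed first where they were also called at week 6 against naive. The change was larger at week 6 for Igfbp2 (by 1.26 on the log2 scale), Nt5e (0.62), Itgb6 (1.64), C4b (0.50), Wnt7a (1.90), Wnt10b (1.00) and the type I epithelial marker Ager (1.80). Igfbp2, Nt5e, Itgb6, Wnt7a and Wnt10b were highest in epithelial barcodes. The change was smaller at week 6 for Ass1 (−1.59), Cyp26b1 (−1.55), Hp (−1.57), Mdm2 (−0.43), Cdkn2b (−0.82), Cthrc1 (−3.58), Tgfb1 (−1.46) and Frzb (−2.66). Genes lower than naive at both times were nearer to naive at week 6: Scube2 by 0.74, Fgf10 by 0.65, Npnt by 0.70, Lama4 by 0.28, Col14a1 by 0.40, Iyd by 1.05, Grik4 by 0.60 and Hba-a1 by 1.72. Of the genes not called against naive, Col1a1 (−1.52, adjusted p = 0.00907 in edgeR) and Mki67 (−2.87, adjusted p = 0.00264) also passed the direct contrast. Without week 3 replicate 1 the direct contrast no longer passed for Nt5e (adjusted p = 0.0585 in edgeR) and Col14a1 (adjusted p = 0.0853). It then passed for Enpp3 (adjusted p = 0.0325) and Col28a1 (adjusted p = 0.0149).

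The 102 genes followed singly under the alternatives, not all named here, were also screened for a difference between cells with Fas deleted and Fas+/+ cells at week 6. Mice with Fas deleted received tamoxifen in corn oil and Fas+/+ mice corn oil alone. Fas deletion and tamoxifen therefore cannot be told apart in this screen. Only Tmem37 passed, lower in the cells with Fas deleted, by −1.46 on the log2 scale. Of the 102 genes 97 had been called at week 6 against naive, and the screen reused the same Fas+/+ week 6 libraries. For a gene chosen as high in those libraries, the choice itself favours a lower value in the other group. No share over all genes tested was computed for this screen. Tmem37 was highest in epithelial barcodes, and the part of admixed transcripts in this difference was not tested.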

How the results depend on the processing

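No value reversed its sign under the alternatives planned. The counts at week 6 against naive depended most on the fit. DESeq2 called 858 higher and 565 lower, the fit to the compared groups alone 966 and 629, and the fit without a filter on low counts 162 lower. An absolute log2 fold change of at least 1 left 28 lower at week 6, 1755 higher and 697 lower at week 3, and 348 higher and 669 lower at week 6 against week 3. With single naive or week 6 libraries left out, the week 6 counts ranged from 305 to 681 higher and 110 to 315 lower, both lowest without week 6 replicate 2 and highest without week 6 replicate 1. The lower count was also reduced to 169 without naive replicate 2, 132 without naive replicate 3, 128 without week 6 replicate 3 and 175 without week 6 replicate 4. Without week 3 replicate 1, added after the data were seen, 769 were higher and 511 lower at week 6. The fit to the compared groups alone called more list members at week 6 as well, 7 of 20 BCL2 family, 5 of 15 Fas pathway, 5 of 24 BMP and 4 of 19 integrin genes, and DESeq2 called 13 of 33 interferon-stimulated genes. The week 3 counts ranged from 2876 to 3726 higher and 2527 to 3606 lower, and those of week 6 against week 3 from 1327 to 2574 higher and 1102 to 2305 lower, with 1102 reached without week 6 replicate 1. The cause of these shifts was not tested beyond the smaller number of libraries.

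Same-numbered naive and week 6 libraries correlated at −0.005, 0.046, −0.060 and 0.28 (replicates 1 to 4). The mean correlations with the other numbers were 0.007, −0.014, 0.012 and −0.090, and 2 of 4 libraries correlated best with their own number. With so few libraries this check cannot decide whether the numbers pair the samples. With the replicate block 499 genes were higher and 255 lower at week 6. Of the 97 called genes followed singly under the alternatives, not all named here, 55 stayed called under every alternative and 42 were not called with at least 1 library left out. The block lost 16 of these calls, the unfiltered fit 9, the compared groups alone 6, and DESeq2 and RLE size factors none. Of 650 list medians 42 moved by more than the spread between the week 6 libraries.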

Other observations

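Some genes outside the lists were looked at after their values were seen, so their levels are given as a description. Peg3, Zim1, Meg3 and Slc38a4 are known to be imprinted, that is expressed from the copy inherited from a single parent, and were picked from the lower genes. Of other imprinted genes, Rian, Plagl1 and Gnas were also called lower by edgeR. Nnat was called higher, and Igf2 (adjusted p = 0.224) and Cdkn1c (adjusted p = 0.574) did not pass. Imprinted genes were not examined as a list. Peg3, a zinc-finger gene expressed from the paternal copy, was at 130, 150, 179 and 142 CPM in naive and at 102, 56.7, 69.9 and 50.4 CPM in week 6 libraries, below every naive library. Zim1, another imprinted zinc-finger gene of chromosome 7, was at 4.87, 7.03, 7.12 and 6.71 CPM in naive and at 3.35, 1.47, 3.07 and 1.61 CPM in week 6 libraries. Meg3, a maternally expressed noncoding RNA, was at 80.8, 109, 98 and 115 CPM in naive and at 64.2, 65.2, 61.3 and 49.6 CPM in week 6 libraries. The amino acid transporter gene Slc38a4 was at 5.47, 10.6, 7.4 and 13.1 CPM in naive and at 3.11, 2.82, 4.66 and 3.52 CPM in week 6 libraries. At week 3 Peg3 was at 56.8 ± 19.9 CPM and Meg3 at 50.4 ± 6.25 CPM (SD, n = 4).

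Ighm, the heavy chain of IgM, was at 4.57, 1.6, 9.74 and 5.11 CPM in naive and at 73.6, 100, 71.8 and 78.2 CPM in week 6 libraries. Unlike Sftpc or Lyz2, it was at a similar level in all 4 week 6 libraries. Lyz2, a myeloid and type II cell gene, was at 2.38, 105, 5.01 and 3.58 CPM in the same libraries.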
